A study of Mus musculus with 15 samples.

Results

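The genes described here are the nuclear genes for respiratory complexes II to V and cytochrome c in CD45.2+ LSK cells (lineage-negative, Sca-1+, c-Kit+ bone marrow stem and progenitor cells) of C57BL/6 mice. Members were chosen by symbol: protein-coding genes of the mouse GENCODE annotation named Sdha to Sdhd, Uqcr, Cox4 to Cox8, Cyc1, Cycs or Atp5. The rule found 50 genes, of which 49 are among the 45232 gene IDs of the count table, and it used no measured value. The 1 left out is a second ID named Atp5o. The 49 comprise 4 genes of complex II, 9 of complex III, the cytochrome c gene Cycs, 18 of complex IV and 17 of complex V. Enough reads were counted for 46 of them to be tested. Cox7b2, Cox8b and Cox8c were not tested. Atp5s matched the name but is not a structural subunit of the enzyme.

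RNA was sequenced from 15 libraries in 5 groups of 3. The WT libraries are labelled wild type, with no drug named. The other 4 groups are cells from lethally irradiated CD45.1 recipients of CD45.2 marrow carrying both Idh2R140Q and Jak2V617F, each switched on by the interferon-inducible Mx1-Cre and transplanted together with wild type CD45.1 competitor cells. These recipients received vehicle, AG221 (enasidenib, an inhibitor of mutant IDH2, 40 mg/kg per the labels), ruxolitinib (a JAK1 and JAK2 inhibitor, 60 mg/kg) or both, by gavage for 21 to 28 days, with the last dose about 1.5 hours before sacrifice. No group carries 1 mutation alone, and the labels do not say whether a library is 1 mouse or a pool. If libraries are not separate animals, the p-values measure technical spread only. WT and combined libraries are named with a B and the other 3 groups with an A. What the letter marks is not given, so a difference between the letters and a difference between those groups cannot be told apart. The labels give no sex, but the groups differ in it. Xist, the RNA that silences an X chromosome in female cells, read 455 to 511 CPM in the 3 WT libraries and at most 19.5 in the 12 libraries of mutant cells, and the Y-linked gene Ddx3y read at most 0.101 CPM in WT and 124 to 206 in the others. The WT libraries thus read as female and all others as male, so in every comparison with WT a difference of sex and a difference of genotype, transplantation or treatment cannot be told apart.

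Complex II oxidizes succinate and passes the electrons to ubiquinone, complex III moves them from ubiquinol to cytochrome c, complex IV hands them to oxygen, and complex V uses the resulting proton gradient to make ATP. All complex II subunits are nuclear, while complexes III, IV and V each also contain subunits read from mitochondrial DNA. Quiescent blood stem cells are known for a largely glycolytic metabolism, and respiration rises as they enter cycle and differentiate. Mutant IDH2, a mitochondrial enzyme, makes 2-hydroxyglutarate from α-ketoglutarate.

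Libraries held 18836625 to 32174287 counted reads. Values are CPM, that is counts scaled to a common library size, after TMM scaling (a correction for library composition), listed in the order B28, B30, B31 for WT, A1, A3, A4 for vehicle, A8, A9, A10 for AG221, A14, A16, A17 for ruxolitinib and B24, B25, B26 for the combination. TMM factors were 1.13 to 1.17 in WT and 0.916 to 1.02 elsewhere. The LSK and stem cell markers were present in every library, with summed levels of 3949 to 4274 CPM in WT and 2325 to 3542 CPM in the other groups. Summed markers of other cell types moved with the groups. The 9 neutrophil markers summed to 3476 to 3833 CPM in WT, 7823 to 12839 with vehicle, 17355 to 20467 with AG221, 12195 to 19309 with ruxolitinib and 4305 to 7727 with the combination. Mpo made up most of that sum, at 2164 to 2388 CPM in WT and 10439 to 12390 with AG221. All 9 had a positive change in vehicle minus WT and 6 in combined minus WT. Single libraries differed, with S100a8 at 14.5 CPM in vehicle A4 against 33.6 to 55 in WT. The 10 erythroid markers summed to 320 to 456 CPM in WT, 749 to 1501 with vehicle, 1334 to 1966 with AG221, 1038 to 4062 with ruxolitinib and 679 to 1763 with the combination. Most of that sum was Car1, at 494 to 964 CPM with vehicle and 921 to 1638 with AG221. The top of the ruxolitinib range was library A16 alone. Car1 read 2410 CPM there against 726 in A14 and 722 in A17, and Hbb-bs 609 against 55.4 and 53.2. Klf1 was lower in AG221 A8 and A10 (6.16 and 8.29 CPM) than in any vehicle library (16 to 129). In AG221 minus vehicle, 8 of the 10 had a positive change, with a median of 0.14 log2 units and 0 called. The 9 immediate early genes summed to 538 to 793 CPM in WT, 4853 to 10959 with vehicle, 1941 to 3627 with AG221, 2537 to 6764 with ruxolitinib and 487 to 963 with the combination. Mast cell and basophil markers summed to 67.9 to 143 CPM in WT, 433 to 822 with vehicle, 400 to 530 with AG221, 241 to 259 with ruxolitinib and 221 to 331 with the combination. Megakaryocyte markers summed to 199 to 257 CPM in WT, 731 to 784 with vehicle, 291 to 521 with AG221, 576 to 633 with ruxolitinib and 436 to 841 with the combination. Plasma cell markers ran the other way, with 594 to 1274 CPM in WT and 34.9 to 217 in the other groups. Monocyte and dendritic markers summed to 315 to 350 CPM in WT and 300.1 to 722 elsewhere, B lineage markers to 66.9 to 91.4 and 28.4 to 57.6, T and NK markers to 9.89 to 11.8 and 1.14 to 6.88, and skeletal muscle markers to 3.13 to 9.36 over all libraries. No marker of these lists was at or under 3 counts in every library, and their part in the results below was not tested. In bulk RNA, fewer cells of a type and less RNA per cell cannot be told apart.

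Within the AG221 group, libraries A8 and A10 stood apart from A9 in these genes. The 11 members furthest below A9 had differences of -0.59 to -3.39 log2 units in the mean of A8 and A10 against A9, and 34 members were higher in A8 and A10. Most of the members lower in A8 and A10 share a feature that the symbol rule did not use. For each member the 100-nt stretch of coding sequence with the highest GC content was found. The 9 members whose stretch exceeds 72% GC (73% to 81%) were all lower, with a median of -1.93 log2 units. Of the other 37 members, with stretches of 47% to 70% GC, 3 were lower and the median was 0.32. The 72% limit was chosen after these values were seen, so the split is a description. Across the 46 members, Pearson's r between the GC of the stretch and the difference was -0.77 and Spearman's rho was -0.53, with all points from the same 3 libraries. Across 17751 tested genes, with the richest 200-nt stretch of the transcript in place of the coding one, rho was -0.46.

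Vehicle library A1 and ruxolitinib library A16 showed a smaller form of the same pattern. The 9 GC-rich members had a median of -0.48 log2 units in A1 against A3 and A4, and of -0.53 in A16 against A14 and A17. The other 37 members had medians of 0.15 and 0.25. What sets these libraries apart was not tested.

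**Figure D1:**
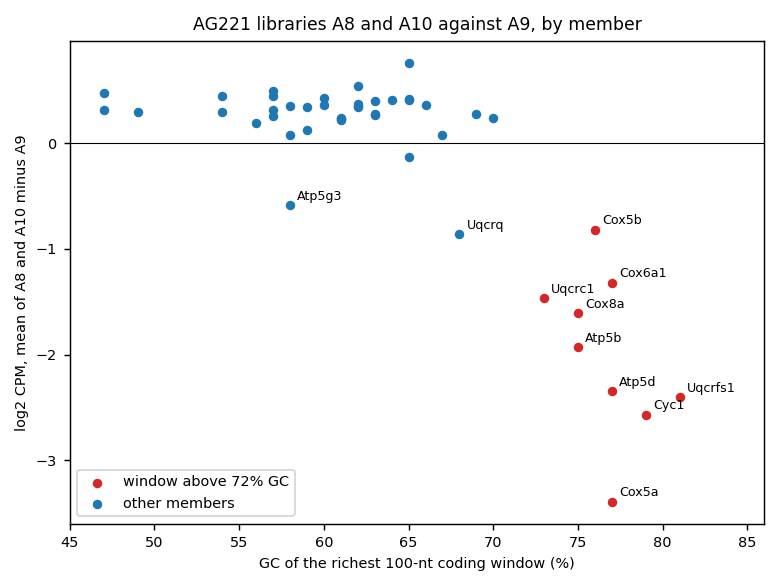
Each point is 1 of the 46 tested members, with the GC content of its richest 100-nt coding stretch in percent on the x axis and log2 CPM in A8 and A10 (mean) minus A9 on the y axis. The 9 red members, 73% to 81% GC, lie between -0.82 and -3.39, while most of the 37 blue members lie above 0.

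The stretches of the 3 members furthest below A9 and of 2 that were above it are shown because results for AG221 turn on this split. They are spliced coding sequence on the mm10 build (GENCODE annotation), read 5′ to 3′ on the strand of the gene, with runs of 5 or more G or C in capitals. Uqcrfs1 lies at chr13:30545137-30545236 on the minus strand within 1 coding exon (81% GC). Cyc1 lies at chr15:76343566-76343665 on the plus strand within 1 coding exon (79% GC). Cox5a lies at chr9:57521333-57528972 on the plus strand over 2 coding exons (77% GC). Uqcrb lies at chr13:66901559-66905310 on the minus strand over 3 coding exons (47% GC), and Cox7b at chrX:106015836-106019643 on the plus strand over 2 (54% GC).
Uqcrfs1: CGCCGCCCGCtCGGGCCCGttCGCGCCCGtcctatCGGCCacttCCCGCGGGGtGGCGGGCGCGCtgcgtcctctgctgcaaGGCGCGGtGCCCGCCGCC
Cyc1: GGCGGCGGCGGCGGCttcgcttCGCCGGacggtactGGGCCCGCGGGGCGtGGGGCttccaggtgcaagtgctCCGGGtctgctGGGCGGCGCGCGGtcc
Cox5a: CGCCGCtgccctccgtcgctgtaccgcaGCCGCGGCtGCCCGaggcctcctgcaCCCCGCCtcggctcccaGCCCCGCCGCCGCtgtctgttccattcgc
Uqcrb: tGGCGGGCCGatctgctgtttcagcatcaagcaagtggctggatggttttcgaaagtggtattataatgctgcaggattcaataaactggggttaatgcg
Cox7b: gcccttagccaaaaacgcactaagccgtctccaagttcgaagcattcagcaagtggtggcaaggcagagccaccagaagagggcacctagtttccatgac

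Per transcript length, the catalytic F1 subunit Atp5b had the highest level, with a median of 1021 CPM per kb over the 15 libraries and a range of 310 to 1439. The range of Atp5a1, the other large F1 subunit and next in order (median 645 CPM per kb, 394 to 853), overlaps it. In complex II the level per length ran from Sdhd (median 267 CPM per kb) to Sdhc (58.6 CPM per kb). In complex III it ran from the core subunit Uqcrc1 (301 CPM per kb) to Uqcrfs1 (86.6 CPM per kb), although Uqcrq came last at 65.3 CPM per kb when the longest coding transcript was used for length. In complex IV it ran from Cox4i1 (460 CPM per kb) to Cox7a1 (0.603 CPM per kb), and in complex V the lowest was Atp5s (26.8 CPM per kb). Sdhd, Sdha and Sdhb had overlapping ranges.

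**Figure D2:**
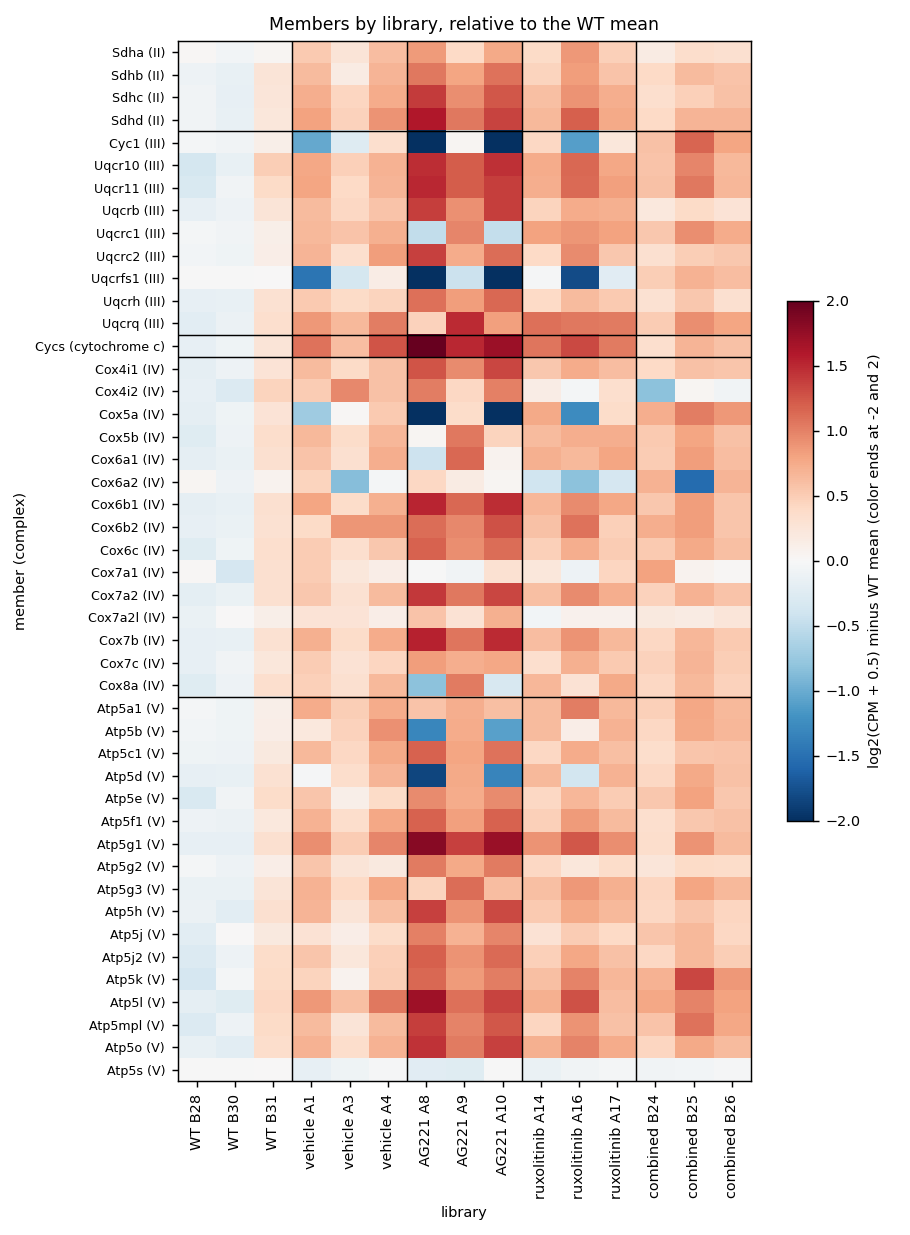
Rows are the 46 tested members by complex, columns the 15 libraries, and color gives log2(CPM + 0.5) minus the WT mean of the member. Of the 46 rows, 33 are above the WT mean in all 12 libraries of mutant cells, and Cyc1, Uqcrfs1, Cox5a, Atp5b and Atp5d are blue in AG221 A8 and A10.

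The comparison of vehicle with WT asks how mutant LSK cells differ from wild type cells without a drug, and here it also sets male against female libraries. Members were higher in vehicle: 26 of the 46 rose and 0 fell, with a median log2 fold change of 0.53, where the median over all tested genes was -0.09. Over all 17834 tested genes, 15.4% were higher and 17.9% lower by the same test (edgeR's quasi-likelihood test, Benjamini-Hochberg adjusted p under 0.05). For 28 members the lowest vehicle library was above the highest WT library. That pattern held for 25.6% of all tested genes. Of the 26 that rose, all are among the 37 members without a GC-rich coding stretch.

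All 4 subunits of complex II rose. Sdhd read 194, 185 and 238 CPM in WT, 358, 283 and 381 with vehicle, 622, 424 and 519.6 with AG221, 319.8, 471 and 346 with ruxolitinib and 268, 329 and 328 with the combination. Sdhd, a membrane anchor of the complex, was higher in every vehicle library than in any WT library, with a log2 fold change of 0.73 ± 0.19 (adjusted p = 0.0131) by edgeR. The other anchor, Sdhc, changed by 0.63 ± 0.16 (adjusted p = 0.012) and its groups did not overlap either. The flavoprotein Sdha, which binds succinate, changed by 0.48 ± 0.16 (adjusted p = 0.0324). Sdhb, the iron-sulfur subunit, changed by 0.50 ± 0.17 (adjusted p = 0.0362), with vehicle A3 (191 CPM) below WT B31 (203 CPM).

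In complex III, 6 of 9 members rose. Uqcrb read 72.5, 75.2 and 97.4 CPM in WT, 126, 108 and 120.4 with vehicle, 213, 153 and 212 with AG221, 111, 136 and 133 with ruxolitinib and 93.7, 105 and 97.6 with the combination. For Uqcrb, which helps form the ubiquinone-binding region, the lowest vehicle library was above the highest WT library and the change was 0.53 ± 0.16 (adjusted p = 0.0229). Uqcrq, a small subunit, changed by 0.84 ± 0.23 (adjusted p = 0.0178), the core subunit Uqcrc2 by 0.63 ± 0.18 (adjusted p = 0.0217), Uqcr11 by 0.60 ± 0.20 (adjusted p = 0.0326) and the hinge subunit Uqcrh by 0.44 ± 0.15 (adjusted p = 0.0372). The members of complex III that did not pass, Uqcrfs1, Cyc1 and Uqcrc1, are those with a GC-rich coding stretch (81%, 79% and 73% GC). Uqcrfs1 read 119, 119 and 120.3 CPM in WT, 43.2, 93.8 and 132 with vehicle, 15.5, 88.6 and 18 with AG221, 118, 34.2 and 102 with ruxolitinib and 168, 194 and 184 with the combination. Uqcrfs1 is the Rieske iron-sulfur protein, and its 3 WT libraries lay close together while vehicle A1 was well under A3 and A4. Its log2 fold change was -0.41 ± 0.59 (adjusted p = 0.606). Cyc1, the heme-bearing cytochrome c1, had -0.22 ± 0.59 (adjusted p = 0.795), and Uqcrc1 had 0.64 ± 0.30 (adjusted p = 0.108).

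Cytochrome c had the largest positive change of the 46 members. Cycs read 40.6, 42.6 and 54.3 CPM in WT, 96.8, 69.9 and 109 with vehicle, 187, 131 and 149.6 with AG221, 96, 115 and 93.9 with ruxolitinib and 57.4, 73.1 and 68.9 with the combination. Cycs carries electrons between complexes III and IV and triggers apoptosis when released. No vehicle library overlapped WT, and the log2 fold change was 1.0 ± 0.19 (adjusted p = 0.00449). Its transcript matches 20 other annotated genes with at least 95% identity over at least 100 nt, 11 of them miRNA genes and 3 processed pseudogenes, so its counts are uncertain where reads were shared.

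Complex IV had 7 members that rose among 15 tested. Cox7b read 72.8, 73.5 and 101 CPM in WT, 133, 105 and 137 with vehicle, 237, 171 and 231 with AG221, 124, 152 and 128 with ruxolitinib and 109, 129 and 117 with the combination. Cox7b, the X-linked member, was higher in every vehicle library (male) than in WT (female) and changed by 0.60 ± 0.17 (adjusted p = 0.0194). The regulatory subunit Cox4i1 changed by 0.52 ± 0.15 (adjusted p = 0.0183), Cox6b1, which faces cytochrome c, by 0.62 ± 0.17 (adjusted p = 0.0179), and its isoform Cox6b2 by 0.73 ± 0.21 (adjusted p = 0.0187). Cox7a2 changed by 0.48 ± 0.16 (adjusted p = 0.0375) with overlapping groups. Cox5a read 42.3, 45.3 and 58.2 CPM in WT, 29.3, 49 and 69.1 with vehicle, 4.87, 62 and 6.98 with AG221, 81.5, 19.8 and 62.2 with ruxolitinib and 80.5, 97.9 and 88.4 with the combination. Cox5a did not pass the test, at 0.02 ± 0.73 (adjusted p = 0.99), with vehicle values on both sides of WT.

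In complex V, 8 of 17 members rose. Atp5g1 read 75, 75.3 and 105 CPM in WT, 159.6, 119 and 166 with vehicle, 298, 218 and 279 with AG221, 158, 199.7 and 160.4 with ruxolitinib and 108, 156 and 130.3 with the combination. Atp5g1 is 1 of 3 genes for the c subunit, which forms the rotating ring, and changed by 0.80 ± 0.20 (adjusted p = 0.011), with no overlap of the groups. A 147-nt stretch of its longest transcript matches another annotated gene counted at a mean of 653 CPM, so its level is uncertain. The F1 subunits Atp5a1 and Atp5c1 changed by 0.66 ± 0.13 (adjusted p = 0.00548) and 0.61 ± 0.14 (adjusted p = 0.0102). The stalk subunit Atp5f1 changed by 0.61 ± 0.16 (adjusted p = 0.0134), and Atp5l, which takes part in holding the enzyme as a dimer, by 0.84 ± 0.24 (adjusted p = 0.02). Atp5b read 1412, 1383 and 1597 CPM in WT, 1688, 2008 and 2757 with vehicle, 594, 2435 and 686 with AG221, 2277, 1609 and 2358 with ruxolitinib and 1957, 2467 and 2320 with the combination. Atp5b, the catalytic subunit, was above WT in each vehicle library but did not pass, at 0.55 ± 0.41 (adjusted p = 0.301). Atp5s, the matched gene that is no subunit, had -0.09 ± 0.12 (adjusted p = 0.553).

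The count for vehicle against WT depended on the scaling, the filter and single libraries. It was 7 with upper quartile scaling and 17 with at least 10 counts required in every library. The count was 2 without WT B30, 7 without WT B28, 8 without vehicle A4 and 10 without vehicle A1, against 34 without AG221 A9. Calls over all genes, in either direction, also moved, from 5937 of 17834 in the main fit. They were 1901 of 18054 without B30, 4286 of 18684 without B28 and 3717 of 19125 without A4. Without A1 they were 3493 of 19116, without A9 7961 of 19125, and with upper quartile scaling 4892. WT B31 was itself higher than the other WT libraries, with members at a mean of 0.28 log2 units above the WT mean.

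**Figure D3:**
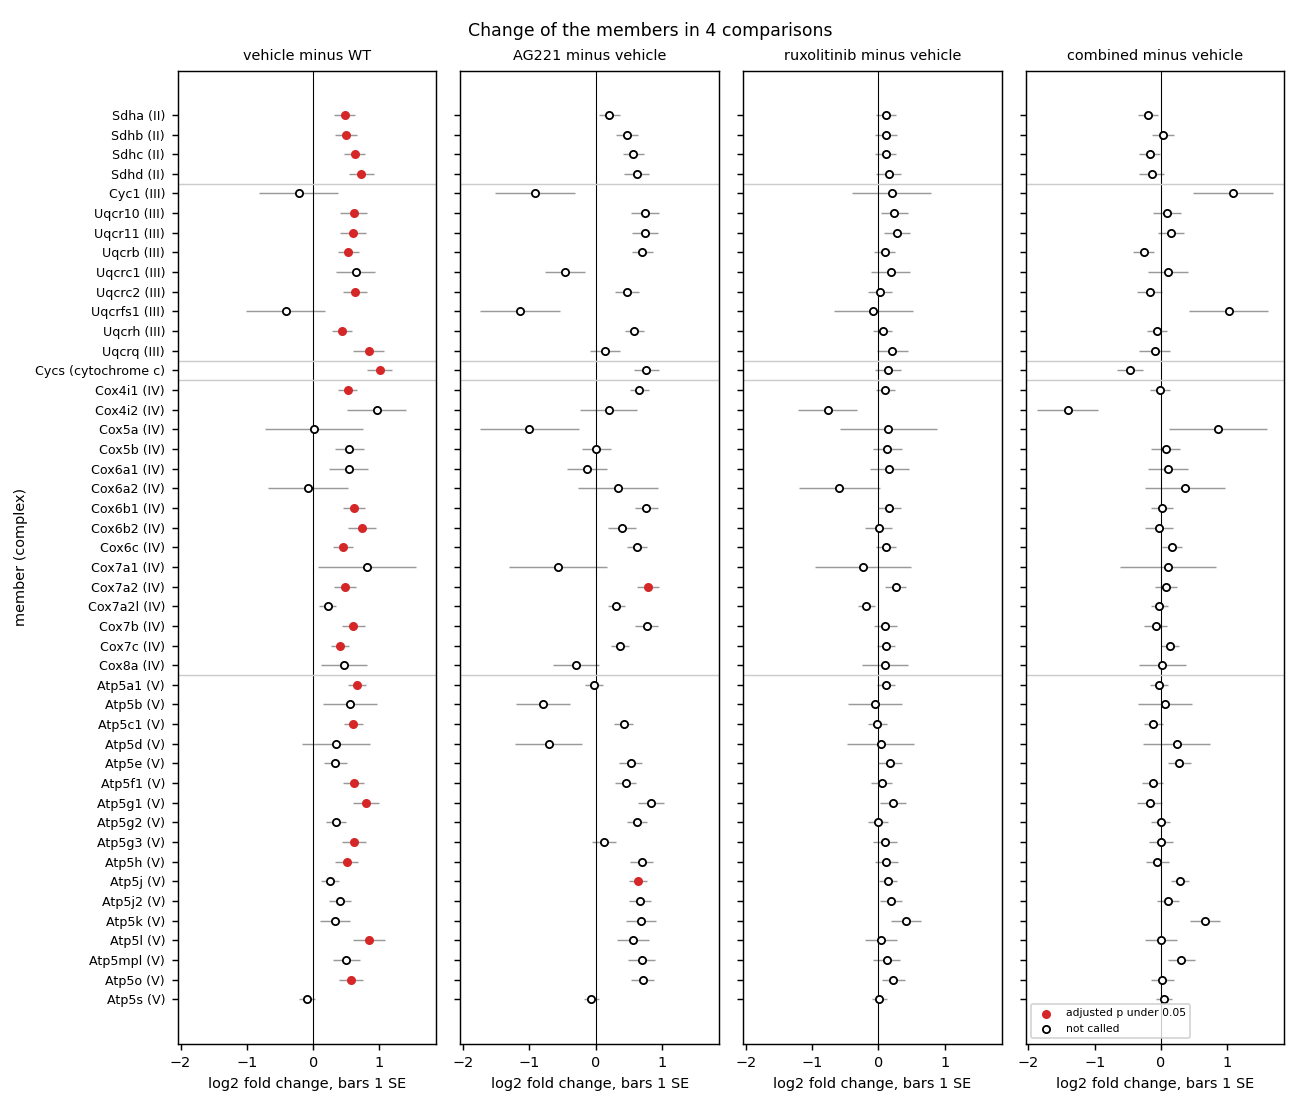
Log2 fold change of each tested member (points) with 1 standard error (bars) in 4 comparisons, grouped by complex, and filled where the adjusted p was under 0.05. In vehicle minus WT 26 points are filled, in AG221 minus vehicle 2, and in the other panels 0.

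AG221 was compared with vehicle to ask what inhibition of mutant IDH2 alone did. By this test 2 members, Atp5j and Cox7a2, rose and 0 fell, where 0.471% of all tested genes were higher and 0.516% lower. The count depended on the tool and scaling, with 26 members higher by DESeq2, 18 with upper quartile scaling, 19 with at least 10 counts in every library and 0 with only the groups compared. Calls over all genes, in either direction, moved in the same settings, from 176 of 17834 in the main fit. They were 2383 by DESeq2, 738 with upper quartile scaling, 906 of 12732 with at least 10 counts and 0 with only the groups compared. The median log2 fold change of the members was 0.47, with -0.01 over all tested genes. In the higher direction, AG221 and vehicle libraries did not overlap for 28 of 46 members, and for 12.7% of all tested genes. Cox7a2 read 67.7, 71.5 and 98 CPM in WT, 114, 96.9 and 121 with vehicle, 209.8, 163 and 198 with AG221, 118, 149.9 and 129 with ruxolitinib and 108, 127 and 116 with the combination. Each AG221 library was above each vehicle library for Cox7a2, a complex IV subunit, and the change was 0.78 ± 0.16 (adjusted p = 0.0458) by edgeR. Atp5j, coupling factor 6 of the stalk, changed by 0.64 ± 0.13 (adjusted p = 0.0458). Its exons overlap the antisense gene Gabpa over 12.7% of their length, and whether the counting used strand is not given.

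Further members lay just short of the adjusted threshold. By the edgeR test, 28 of the 46 members and 4498 of all 17834 tested genes had an unadjusted p under 0.05. Cycs had a log2 fold change of 0.76 ± 0.19 (adjusted p = 0.0614), Atp5g1 0.84 ± 0.20 (adjusted p = 0.0555), Uqcrb 0.70 ± 0.16 (adjusted p = 0.0537) and Cox7b 0.77 ± 0.17 (adjusted p = 0.0525) by edgeR. For each of these 4 the lowest AG221 library was A9, and it too exceeded every vehicle library. The GC-rich members split the group instead. Cyc1 read 25.6 and 25.4 CPM in A8 and A10 but 152 in A9, and Uqcrfs1 read 15.5 and 18 CPM but 88.6 in A9. Cox5a was at 4.87 and 6.98 CPM in A8 and A10 and at 62 in A9, Atp5d at 45.2 and 65 CPM against 276, and Atp5b at 594 and 686 CPM against 2435. Cox5a and Atp5d are named because these values were seen. In A9, 4 of these 5 members lay within the vehicle range, and Atp5d was above it, at 276 against at most 262 CPM. Leaving out A9 gave 26 members higher and 8 lower, and leaving out any other 1 of the 15 libraries gave 0. Over all genes, 4672 of 19125 were called in either direction without A9, and at most 27 without any other 1 library. With both A8 and A10 left out, the 37 members without a GC-rich stretch kept a median of 0.37. That fit assumes that the lone library A9 varies like the other groups, and it cannot show which members pass.

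**Figure D4:**
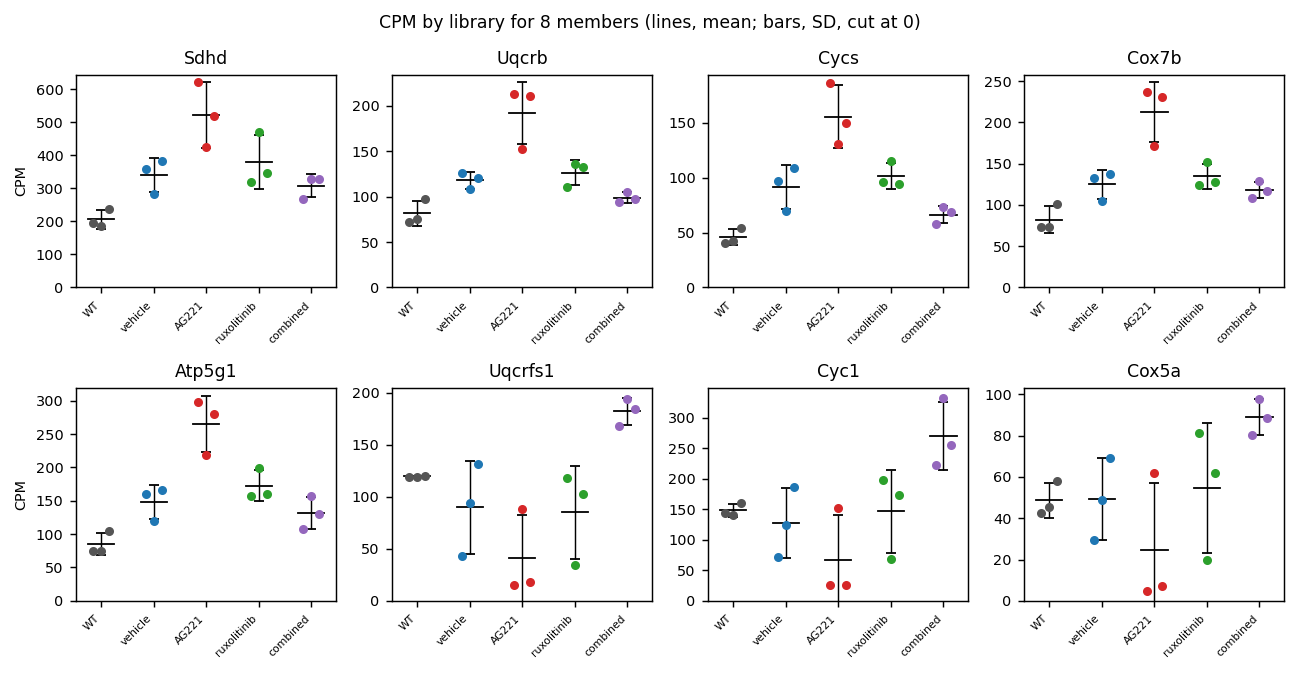
CPM in each library for 8 members, with group means (lines) and SD (bars, cut at 0). Sdhd, Uqcrb, Cycs, Cox7b and Atp5g1 are highest with AG221, whereas Uqcrfs1, Cyc1 and Cox5a are low in A8 and A10 and near the vehicle range in A9.

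Ruxolitinib alone was compared with vehicle to ask what JAK inhibition did. No member passed the test, and DESeq2 also called 0. By edgeR 0 of 46 members had an unadjusted p under 0.05, where 813 of all 17834 tested genes did. Of all tested genes 0.0168% passed. The median log2 fold change of the members was 0.12. Cycs changed by 0.15 ± 0.19 (adjusted p = 1.0) and Sdhd by 0.15 ± 0.19 (adjusted p = 1.0), both with overlapping groups. The largest fitted value was the low gene Cox4i2, at -0.77 ± 0.44 (adjusted p = 1.0).

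The combination was compared with vehicle to ask what both drugs did together. No member passed by edgeR, while DESeq2 called 1 higher and 1 lower. By edgeR 3 of 46 members had an unadjusted p under 0.05, as did 4715 of all 17834 tested genes. In all, 12.5% of tested genes passed in this comparison. The members' median log2 fold change was 0.02. Cycs had -0.47 ± 0.19 (adjusted p = 0.135) and Sdhd -0.14 ± 0.19 (adjusted p = 0.682). Cyc1 and Uqcrfs1, at 1.08 ± 0.60 (adjusted p = 0.276) and 1.02 ± 0.60 (adjusted p = 0.307), were higher in each combined library than in any vehicle library. Both are GC-rich members, and vehicle A1 was low for them.

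Against WT, again male against female libraries, 5 members were higher with the combination and 0 lower, with a median of 0.58. The share of all tested genes called higher was 1.63%. The count was 20 without AG221 A9, 15 without WT B31, 0 without A10, B25, B26, B28 or B30, 1 without A8 or A17, and 2 without A1, A14 or B24. Over all genes, 579 of 17834 were called in either direction in the main fit. Without A9 1306 of 19125 were called, without B31 415 of 18734 and without B25 88 of 19112. The 5 were Atp5a1, Atp5j, Atp5k, Atp5mpl and Cox6c. Atp5a1 changed by 0.63 ± 0.13 (adjusted p = 0.0272) and Atp5j by 0.53 ± 0.13 (adjusted p = 0.0473). Combined and WT libraries did not overlap, in the higher direction, for 40 of 46 members, and for 22.3% of all tested genes. Vehicle minus WT and combined minus WT share the WT libraries. For Cycs they gave 1.0 ± 0.19 and 0.54 ± 0.19, and for Sdhd 0.73 ± 0.19 and 0.58 ± 0.19.

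Against AG221, the combination had 2 members higher and 21 lower, where 18.9% of all tested genes were higher and 14.3% lower. The median was -0.44. Cycs fell in the combined libraries by 1.23 ± 0.19 (adjusted p = 0.0022) on the log2 scale, to 57.4, 73.1 and 68.9 CPM from 187, 131 and 150. Uqcrb fell by 0.96 ± 0.16 (adjusted p = 0.00244), Atp5g1 by 1.01 ± 0.20 (adjusted p = 0.00363) and Cox7b by 0.85 ± 0.17 (adjusted p = 0.00408). For all 4 no combined library reached the lowest AG221 library. The 2 that rose were Cyc1, at 2.0 ± 0.61 (adjusted p = 0.0243), and Uqcrfs1, at 2.16 ± 0.62 (adjusted p = 0.0179), both GC-rich. The count was 13 without A8, 14 without A10 and 14 without combined B24. Against ruxolitinib no member passed by edgeR, where 12.4% of all tested genes passed, and the members' median was -0.09. An unadjusted p under 0.05 was found for 2 members and for 4536 of all 17834 tested genes. DESeq2 called 1 member, as did edgeR without A3, A8, A9 or B25. Cycs was closest, at -0.61 ± 0.19 (adjusted p = 0.053).

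The departure of the combination from the sum of the 2 single-drug changes asks whether AG221 acted alike with and without ruxolitinib. Only the combined libraries in this contrast are named with a B, so a difference between the letters cannot be told apart from a departure. It was negative for 11 members that passed and positive for 0, where 5.6% of all tested genes departed upward and 2.82% downward. Cycs had -1.37 ± 0.27 (adjusted p = 0.0268): AG221 against vehicle gave 0.76 ± 0.19 and the combination against ruxolitinib gave -0.61 ± 0.19. Atp5g1 had -1.23 ± 0.28 (adjusted p = 0.0335), Uqcrb -1.06 ± 0.22 (adjusted p = 0.0318) and Cox7a2 -0.97 ± 0.23 (adjusted p = 0.0363). Over all genes, 1502 of 17834 departed in either direction in the main fit, 6087 of 19125 without A9 and 44 to 1731 without any other 1 library. The count of members was 29 without A9, 0 without A3, A8, A10, A17, B24 or B25, 1 without A4, A16 or B28, 5 without B26 and 6 without B30. With both A8 and A10 left out A9 is the lone AG221 library, so that fit cannot show which members depart.

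Several subunits have isoforms made in particular tissues, and the levels per length separate them. Cox4i1 exceeded Cox4i2, an isoform of lung and other oxygen-sensing tissue, in every library, with medians of 460 and 1.49 CPM per kb. Cox6a1 had a median of 349 CPM per kb and the heart and muscle isoform Cox6a2 2.99. Cox7a2 was at 180 CPM per kb and the related Cox7a2l at 73.1, while the muscle isoform Cox7a1 was at 0.603. Cox8a was at 365 CPM per kb, and its partners Cox8b and Cox8c had no more than 0.101 and 0.404 CPM in any library. Cox7b2 had at most 0.202 CPM. Cox6b2, known from testis, was an exception to the low isoforms at 79.1 CPM per kb, below Cox6b1 at 355. Among the c subunit genes, Atp5g3 (537 CPM per kb) was above Atp5g1 (265) and Atp5g2 (62.4), although Atp5g1 fell to 33.5 CPM per kb with the longest transcript as its length.

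**Figure D5:**
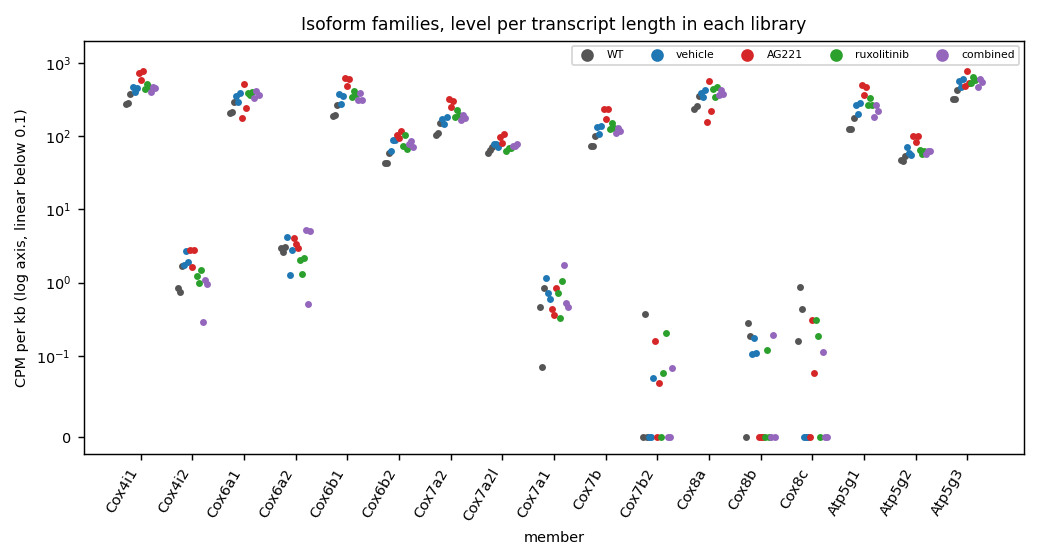
CPM per kb of transcript in each of the 15 libraries for 17 isoform genes, on a log axis that is linear below 0.1, colored by group. Cox4i2, Cox6a2 and Cox7a1 lie under 10 CPM per kb, Cox7b2, Cox8b and Cox8c near 0, and Cox6b2 well above them.

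Other genes of the pathway were counted in the same way. Of 37 tested assembly factors, which build the complexes, 9 were higher and 3 lower in vehicle than in WT, where 15.4% and 17.9% of all tested genes were, with a median of 0.18. Among the 9, Coa5 of complex IV assembly changed by 0.69 ± 0.17 (adjusted p = 0.0116), the complex V factors Fmc1 and Atpaf2 by 0.70 ± 0.18 (adjusted p = 0.013) and 0.62 ± 0.18 (adjusted p = 0.0215), and Cox10, which makes the heme of complex IV, by 0.67 ± 0.23 (adjusted p = 0.0393). The 3 that fell were Cox17, Sdhaf1 and Ttc19. Cox17, a copper chaperone for complex IV, changed by -1.17 ± 0.22 (adjusted p = 0.00417), and Sdhaf1, which helps put iron-sulfur clusters into Sdhb, by -1.35 ± 0.42 (adjusted p = 0.0284). Ttc19, a complex III factor, changed by -0.63 ± 0.23 (adjusted p = 0.0486). All 3 rose with the combination against vehicle, Cox17 by 0.90 ± 0.22 (adjusted p = 0.0178), Sdhaf1 by 2.29 ± 0.43 (adjusted p = 0.00475) and Ttc19 by 0.83 ± 0.23 (adjusted p = 0.03), among 6 assembly factors higher and 0 lower, where 12.5% of all tested genes passed in either direction. These genes were named after their values were seen. Vehicle minus WT and combined minus vehicle share the vehicle libraries, so low values there favor opposite signs. Both also set A libraries against B libraries, so the letter and these changes cannot be told apart. Cox17 read 3.47 to 7.22 CPM in the A libraries and 7.62 to 10.9 in the B libraries, and Sdhaf1 0.385 to 1.08 and 1.34 to 4.46. For Ttc19 the letters overlapped, with 8.91 CPM in AG221 A10 and 8.32 in WT B31. Sdhaf1 was a low gene, at 0.385 to 4.46 CPM over the 15 libraries. Of 13 transcription factors and coactivators of these genes, 1 was higher and 1 lower in vehicle than in WT, a smaller share than among all tested genes. Nrf1, a regulator of many respiratory genes, changed by 0.40 ± 0.14 (adjusted p = 0.0479) and the coactivator Ppargc1a by -2.30 ± 0.52 (adjusted p = 0.0081). Of 6 mitochondrially encoded partners 4 were tested and 0 passed between vehicle and WT, with a median of 0.23. By edgeR 0 of them had an unadjusted p under 0.05 there, where 8221 of all 17834 tested genes did. Only mt-Cytb and mt-Co1 were counted at more than 10 CPM. With the combination against AG221 both fell, mt-Cytb by 0.53 ± 0.14 (adjusted p = 0.0128) and mt-Co1 by 0.43 ± 0.13 (adjusted p = 0.0222) on the log2 scale. In that comparison 14.3% of all tested genes were lower. For mt-Co1, AG221 A9 and combined B26 both read 3018 CPM, against 3989 in A8 and 3726 in A10. For mt-Cytb, A9 read 2399 CPM, above the highest combined library at 2126.

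Promoters of the members were searched for an ETS motif, since ETS factors such as GABP are known regulators of respiratory genes. RefSeq promoters (GRCm38.p6, 250 bases before to 50 after a start) matched 33 tested members by symbol, with 36 sequences. The letters CCGGAAG, on either strand, were in 33.3% of them and in 8.86% of all 32851 promoters of that length. Of the 12 members holding it, 7 were higher in vehicle than in WT and 5 were not called (Atp5e, Atp5j, Atp5k, Cox6a1 and Cox8a), among 18 and 15 with a promoter. From the 7, 3 matches are shown with the motif in capitals to show where it lies, at chr4:116075065-116075089 (minus strand) for Uqcrh, chr9:50603880-50603904 (minus strand) for Sdhd and chr7:30626127-30626151 (minus strand) for Cox6b1. A match is a description of letters, not of binding.
Uqcrh: tatgccgcaCTTCCGGccaggtcgc
Sdhd: gtctcctgcCTTCCGGttcacgctt
Cox6b1: ctctcgcagCTTCCGGccagtcgga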

How the data were processed

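CD45.2+ LSK cells were sorted and their RNA was amplified with SMARTer and sequenced as paired 50-base reads. The authors deposited raw read counts per Ensembl gene, counted on mm10 by STAR 2.5.1a per the labels, which also name DESeq2 1.6.3. The strand setting and annotation release are not given in the sources used here. A second deposited table of normalized values was not used. Here 44585 of 45232 IDs were matched to GENCODE release 21, which supplied positions, lengths and sequences. Counts were filtered with filterByExpr (17834 genes kept), scaled by TMM, and tested in edgeR 4.0.16 (R 4.3.3) with quasi-likelihood fits over 5 groups and 15 libraries, with Benjamini-Hochberg adjustment over all tested genes and a threshold of 0.05. Fold changes are log2 with standard errors from the F statistic. The common biological coefficient of variation was 0.313. Logged CPM used a prior count of 2. The script was tested on simulated counts. Named members were the called members with the smallest adjusted p in each complex (up to 5), those called in AG221, ruxolitinib or departure comparisons (up to 8), isoform families, Sdha to Sdhd, Cyc1, Cycs, Uqcrfs1, X-linked members, and the highest and lowest per length. Alternatives were DESeq2 1.42.0, other scalings and filters, only the groups compared, GC or length offsets by lowess (span 0.3), and leaving out libraries. The members and lists were chosen with earlier results of these data known. Values rest on 3 libraries a group, and totals of 18836625 to 32174287 counts limit the low genes.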

Additional observations from a re-analysis of the deposited data

Results flagged for a closer look

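In 11 of the 46 tested members the change with AG221 differed between groups with and without ruxolitinib. The test was the interaction term of the edgeR quasi-likelihood fit over all groups. All 11 departed downward, where 2.82% of all tested genes departed downward and 5.6% upward. Only the combined libraries in this contrast are named with a B, so the letter and a departure cannot be told apart. The count was 0 to 29 when 1 library was left out. The log2 departures were -1.37 for Cycs, -1.06 for Uqcrb, -1.23 for Atp5g1, -0.97 for Cox7a2, -0.96 for Cox7b, -0.85 for Sdhc, -0.78 for Cox4i1, -0.92 for Cox6b1, -0.91 for Atp5o, -0.87 for Atp5h and -0.91 for Sdhd, with adjusted p of 0.0268 to 0.0493. For each of the 11, AG221 minus vehicle was positive and combined minus ruxolitinib negative. Values of AG221 libraries A8 and A10 enter every one of them. With both left out A9 is the lone AG221 library, so that fit cannot show which members depart. Neutrophil markers moved with the same groups, at 17355 to 20467 CPM with AG221 and 4305 to 7727 CPM with the combination, and their part in these results was not tested.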

How the results depend on the processing

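No paired analysis was possible because the groups share no replicate numbers. Among 1351 refits of named members in comparisons where they were called, 1012 kept the call, 339 lost it and 0 changed sign. Where they were not called, 294 of 5698 refits had the opposite sign, and 0 of those passed. In AG221 minus vehicle without A8 and A10, 8 named members did so, among them Cyc1 (from -0.92 to 0.25), Atp5b (from -0.80 to 0.18), Uqcrc1 (from -0.47 to 0.33) and Cox8a (from -0.30 to 0.54). Members called in vehicle minus WT were 7 with upper quartile scaling and 17 with at least 10 counts in every library, with a range of 2 to 34 when 1 library was left out. In AG221 minus vehicle they were 26 with DESeq2, 6 with RLE, 18 with upper quartile and 1 with no filter beyond 1 count. They were 19 with at least 10 counts, 0 with only the groups compared, 6 with the GC offset and 0 with the length offset. The range was 0 to 34 when 1 library was left out. In combined minus vehicle they were 2 with DESeq2, 1 with upper quartile, 1 with the GC offset, 1 with the length offset, 1 with an offset for the richest 200-nt GC stretch and 2 without A1, A8, A10 and A16, with 0 when 1 library was left out. In combined minus WT they were 19 with DESeq2, 2 with RLE, 0 with upper quartile, 0 with at least 10 counts, 8 with only the groups compared, 2 with the length offset, 23 with the 200-nt offset, 3 without A8 and A10 and 9 without A1, A8, A10 and A16, with 0 to 20 when 1 library was left out. In combined minus AG221 they were 13 to 34 when 1 library was left out. In combined minus ruxolitinib they were 1 with DESeq2, upper quartile, at least 10 counts, only the groups compared, and either set of libraries left out, with 0 to 1 when 1 library was left out. Departures numbered 21 with DESeq2, 23 with upper quartile, 19 with at least 10 counts and 3 with only the groups compared. They numbered 6 with the length offset and 4 with the 200-nt offset, with 0 to 29 when 1 library was left out. For contrasts that include AG221, counts with either set of libraries left out are not given, since 1 AG221 library then remains. Ruxolitinib minus vehicle stayed at 0 throughout. Calls over all tested genes moved as well. In AG221 minus vehicle they were 2383 with DESeq2 and 4672 without A9, against 176 in the main fit. In combined minus AG221 they were 3002 without A8 and 8140 without A9, against 5917 in the main fit. The 200-nt offset and both sets of libraries left out were chosen after seeing the data. The members' median in vehicle minus WT was 0.73 with the GC offset and 0.71 without B31. Upper quartile scaling moved the median of all genes in AG221 minus vehicle from -0.01 to 0.18 and that of the members from 0.47 to 0.67. The cause of these shifts was not tested.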

Other observations

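The members called in vehicle against WT and not described above were of the same sign. Uqcr10 of complex III had a log2 fold change of 0.61 ± 0.21 (adjusted p = 0.0378) by edgeR, Cox6c and Cox7c of complex IV had 0.44 ± 0.15 (adjusted p = 0.0377) and 0.41 ± 0.14 (adjusted p = 0.0402), and Atp5g3, Atp5h and Atp5o of complex V had 0.62 ± 0.18 (adjusted p = 0.0223), 0.51 ± 0.17 (adjusted p = 0.0377) and 0.57 ± 0.18 (adjusted p = 0.026). All but Atp5g3 were named after their values were seen.

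Cox6b2, an isoform known from testis, was counted at 19.6 to 54.4 CPM in the 15 libraries, while Cox6a2, Cox7a1 and Cox4i2 stayed at or below 3.5 CPM. Of the 49 members, 20 have another annotated transcript with at least 95% identity over at least 100 nt, and for 13 of them such a transcript was itself counted above 1 CPM on average.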
